A study of Homo sapiens with 20 samples.

Results

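The double silencer excision was compared with its vector control in K562 cells. K562 is an erythroleukemia line that carries the BCR-ABL1 fusion, grows in suspension and keeps part of an embryonic and fetal red cell program. The excised cells, called DKO here, went through CRISPR excision of 2 regions, silencer 1 and silencer 2; the controls, called EV, carried empty vector and were grown in the same serum-containing RPMI medium. The labels are not clear on the EV cells: their treatment is given as none, while the protocol counts them among the cells that went through excision, so what they underwent beside the vector is not known here. Members were chosen as the DKO and EV libraries of total, ribosome-depleted RNA, which are 4 of the 20 libraries analysed here, with 2 libraries per group. The 2 libraries of cells with silencer 1 alone excised (S1KO) and the 2 with silencer 2 alone excised (S2KO) entered the same statistical fit and are used for comparison; 12 libraries of drug-treated K562 cells were not used. The labels do not say whether each cell line is 1 clone or a pool of edited cells, so an effect of excision and a difference between derived lines cannot be told apart. A difference in how the libraries of a group were made or run could not be told from excision either. This holds for DKO against S1KO and S2KO as well. Nor do they say that the 2 libraries of a group came from separate cultures, so p-values measure the spread between these libraries, which may be technical.

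Silencers are DNA elements that lower the transcription of a target gene, often through a chromatin contact. Many of them carry the histone mark laid down by Polycomb repressive complex 2 (PRC2), whose catalytic subunit is EZH2, or bind REST, a zinc finger repressor that keeps neuronal genes off in other tissues. The excised elements are known for their action on FGF18, which encodes a secreted fibroblast growth factor. In K562, GATA1 and TAL1 drive the red cell genes, which include the globin chains of hemoglobin, the enzymes that make heme and the proteins of the red cell membrane.

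The deposited estimated counts summed over genes came to 55913728 and 59444567 in the DKO libraries, and to 81110324 and 87678181 in the EV libraries. After a filter on low counts, 21285 genes were tested, and a gene was called at an edgeR adjusted p under 0.05. Levels are given below as counts per 1000000 (CPM) of the effective library size, in the order replicate 1, replicate 2, and changes as fitted log2 differences of DKO over EV ± SE. The replicates differed by more than 1 log2 unit for 6.29% of the genes in DKO and for 19.3% in EV. EV replicate 2 stood apart from EV replicate 1 in several gene lists described below, and the results that rest on it are given with and without it. With 2 libraries in each group, the smallest two-sided p of an exact permutation test is 0.333, so the adjusted p-values rest on a variance model shared over the 8 libraries of the excision experiment.

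FGF18, the gene the silencers are known to act on, was barely detected. It had 0.274 and 0.259 CPM in DKO and 0.114 and 0 CPM in EV. Both DKO libraries were above both EV libraries, but these levels rest on 16 and 16 counts in DKO and on 9 and 0 counts in EV. The change of 2.21 ± 1.28 was not called (edgeR adjusted p = 0.350) and was 1.21 without EV replicate 2. EZH2 had 160 and 182 CPM in DKO and 206 and 181 CPM in EV, a difference of -0.17 ± 0.17 (edgeR adjusted p = 0.575). REST had 84.2 and 77.2 CPM in DKO and 81.2 and 75 CPM in EV (0.05 ± 0.14, edgeR adjusted p = 0.875). Of the 11 tested PRC2 subunit genes, 1 was called, RBBP4, a histone chaperone, which fell to 247 and 237 CPM in DKO, against 401 and 400 CPM in EV, and was not called without EV replicate 2 (edgeR adjusted p = 0.0662). RCOR1, the CoREST scaffold that joins REST to histone-modifying enzymes, was the only call among the 13 genes for REST and its corepressors. It had 5.15 and 4.70 CPM in DKO and 12.7 and 18 CPM in EV. The counts of calls in the PRC2 and REST lists are to be read against 8.77% of all genes called in either direction. RCOR1 was also lower in DKO than in S1KO (-2.25, edgeR adjusted p = 0.0344) and than in S2KO (-2.16, edgeR adjusted p = 0.0210), but the call against EV was lost without EV replicate 2 (edgeR adjusted p = 0.0957).

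In all, 1866 genes were called between DKO and EV, 8.77% of those tested, with 1152 higher (5.41%) and 714 lower (3.35%) in DKO. The median change over all tested genes was 0.01, which is the background against which the gene lists below are read. Against the single excisions in the same fit, 233 genes (1.09%) were called between DKO and S1KO and 631 (2.96%) between DKO and S2KO. Both DKO libraries lay above both EV libraries for 30.2% of the tested genes and below both for 28.1%. With 1 library left out, the lone library of its group is assumed to vary like the other groups. The calls against EV then numbered 526 without DKO replicate 1, 528 without DKO replicate 2, 1333 without EV replicate 1 and 924 without EV replicate 2, and 469 genes (2.2%) were called every time, 343 higher and 126 lower in DKO. Of 104 called genes that stand on a gene list, 37 were called in all 4 of these fits. With a library left out, the calls against S1KO numbered 17 to 36 and those against S2KO 101 to 302. Many changes started from near silence: 212 of the genes called higher had at most 3 counts over both EV libraries, and 81 of those called lower had at most 3 counts over both DKO libraries. For such genes the fitted log2 change depends on the prior count and is not printed. A fold is given instead, with 3 counts per group as the floor where the count was 0, or as a ratio of counts with its 95% exact interval, which covers counting error only.

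**Figure D1:**
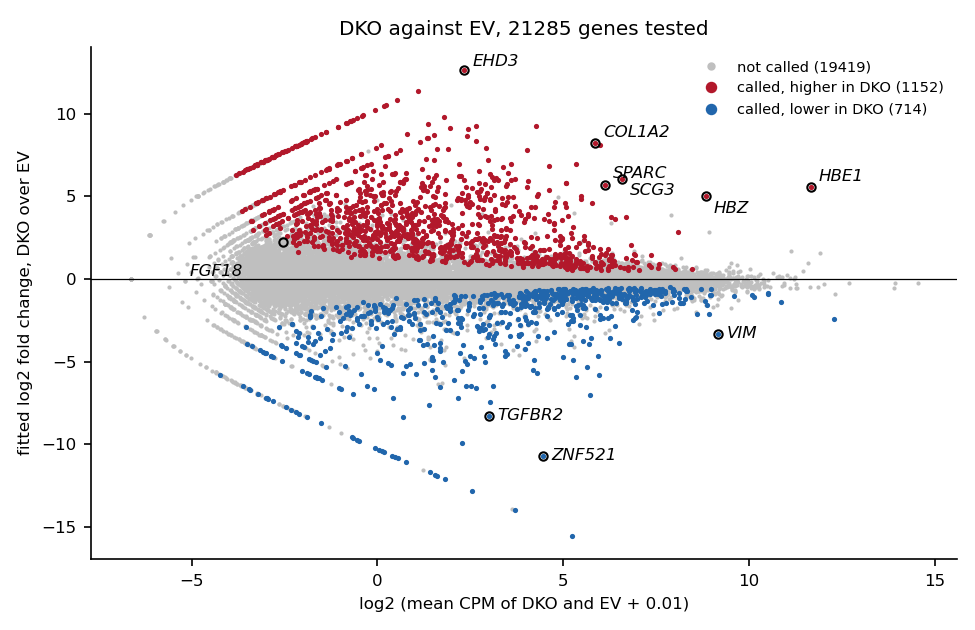
Fitted log2 change of DKO over EV (vertical axis) against mean expression of DKO and EV in log2 CPM (horizontal axis) for the 21285 tested genes, one point per gene, with called genes coloured by direction. The 1152 genes called higher and the 714 called lower are spread over the whole range of expression, and the largest changes in both directions sit at low to middle levels.

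The largest rises among protein-coding genes that stayed called with any library left out were in genes that EV hardly expressed. EHD3, an ATPase of endosomal recycling, had 9.96 and 10.1 CPM in DKO and no count in EV, so it was at least 544-fold higher. ZNF662, a zinc finger gene, had 820 counts over the DKO libraries and 1 over the EV libraries (ratio 1110, interval 199 to 43900). ABCG2, an efflux transporter of drugs and porphyrins, had 11.5 and 10.1 CPM in DKO and 0.0253 and 0.0119 CPM in EV (ratio 585, interval 200 to 2840). The rule that chose these genes required both DKO libraries to lie above both EV libraries. That held for 30.2% of all tested genes. GJA1, which encodes the gap junction protein connexin 43, had 6.03 and 5.44 CPM in DKO and 0.0253 and 0 CPM in EV (ratio 466, interval 129 to 3860). EFEMP1, a secreted matrix glycoprotein, had 39.5 and 38 CPM in DKO, 40.2 and 47.7 CPM in S1KO, 1.56 and 1.93 CPM in S2KO and 0.0506 and 0.0717 CPM in EV. It rose by 9.27 ± 0.29 over EV (edgeR adjusted p = 0.000159) and differed from S1KO by -0.18 (edgeR adjusted p = 0.755). IKZF3, a lymphoid zinc finger transcription factor, had 10.7 and 10.5 CPM in DKO, 3.25 and 2.30 CPM in S1KO, 6.0 and 5.36 CPM in S2KO and 0.0379 and 0.0119 CPM in EV, so every library of the 3 excised lines lay above both EV libraries. MARC1, a mitochondrial reductase gene, C9orf84, C4orf54, KRT222, HBB and TUBA3C completed the 12 largest rises; TUBA3C has near-identical tubulin copies, so its share of the reads is uncertain. The long noncoding RNA AC006148.1 rose to 11.4 and 13.8 CPM in DKO, against 0.102 and 0.128 CPM in S1KO, 0.515 and 0.749 CPM in S2KO and 0.0379 and 0.0358 CPM in EV. DKO exceeded S1KO by 6.76 (edgeR adjusted p = 0.00306) and S2KO by 4.32 (edgeR adjusted p = 0.00181).

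The largest falls took genes that EV expressed at clear levels to near 0. ZNF521, a zinc finger cofactor of blood progenitors, had 0 and 0.0485 CPM in DKO, 0.102 and 0.0213 CPM in S1KO, 4.54 and 8.31 CPM in S2KO and 42.3 and 44.7 CPM in EV. Its 3 counts in DKO set against 7087 in EV give an EV over DKO ratio of 1750 (interval 599 to 8470). TGFBR2, the type II receptor for TGF-beta, had 0.0342 and 0.0646 CPM in DKO, 0.0410 and 0.106 CPM in S1KO, 0.566 and 0.894 CPM in S2KO and 17.0 and 15.1 CPM in EV. TGFBR2 fell by 8.29 against EV (edgeR adjusted p = 0.000692) and was also lower in DKO than in S2KO (-3.83, edgeR adjusted p = 0.0195). For both genes the S1KO libraries were as low as DKO and the S2KO libraries lay between DKO and EV. PTPN7, a tyrosine phosphatase of blood cells, had 0.993 and 0.630 CPM in DKO, 10.8 and 9.04 CPM in S1KO, 74.0 and 32.8 CPM in S2KO and 159 and 52.9 CPM in EV. GPR174, a receptor for lysophosphatidylserine, had no count in DKO and was at least 237-fold lower than in EV, where it had 4.22 and 7.49 CPM. ZNF804A (at least 104-fold lower) and ZNF804B (at least 86.3-fold lower) also had no count in DKO. EPX, which encodes eosinophil peroxidase, had 3 counts in DKO and 837 in EV, an EV over DKO ratio of 206 (interval 70.4 to 1000.0). ADAMTS9, PRR16, SSX3, MTRNR2L8 and HIST1H2BK completed the 12 largest falls. HIST1H2BK had no count in either DKO or S1KO library and 109 and 42.0 CPM in EV; histone genes have near-identical copies, so the assignment of its reads is uncertain. MTRNR2L8 copies mitochondrial ribosomal RNA sequence and is uncertain for the same reason.

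**Figure D2:**
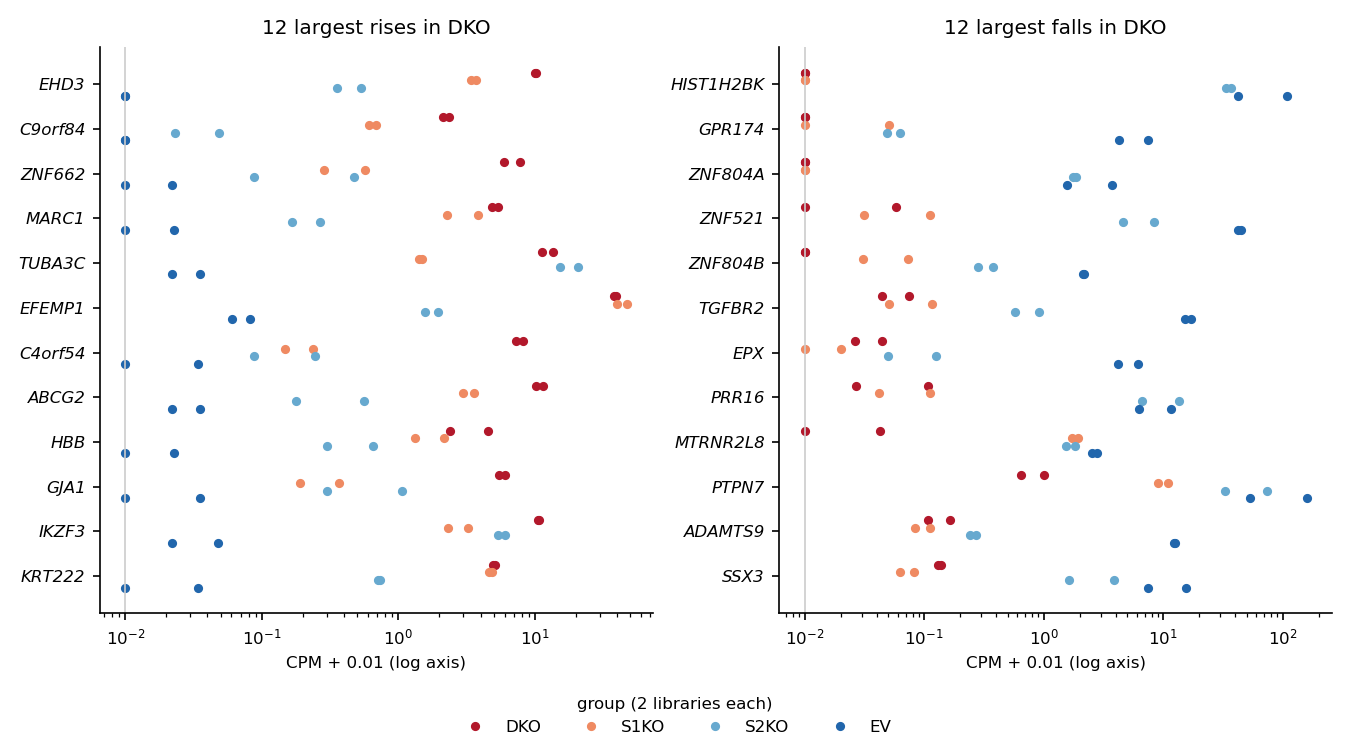
CPM plus 0.01 in each of the 8 libraries on a log axis, 1 row per gene, for the 12 largest rises (left) and the 12 largest falls (right), with DKO, S1KO, S2KO and EV libraries in separate colours; the grey line marks 0 CPM. By the rule of choice, DKO points lie right of both EV points for each rise and left of them for each fall. S1KO and S2KO points vary from gene to gene.

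Embryonic globin genes were among the rises in DKO. Of the 10 tested globin genes, 3 were called higher and 0 lower, against 5.41% and 3.35% of all genes, with a median change of 3.36. The count depends on the model: 8 of the 10 were higher at an unadjusted p under 0.05, 7 were called by DESeq2 and 8 with the replicate number as a block. HBE1, the embryonic beta-type chain, had 5967 and 6694 CPM in DKO, 4608 and 2975 CPM in S1KO, 2670 and 1519 CPM in S2KO and 97.0 and 169 CPM in EV. The 2 EV libraries were far below the other 6, and the rise over EV was 5.57 ± 0.46 (edgeR adjusted p = 0.00123). HBB, the adult beta chain, had 418 counts over DKO and 1 over EV (ratio 565, interval 101 to 22400). HBZ, the embryonic alpha-type chain, had 722 and 1046 CPM in DKO and 46.9 and 8.42 CPM in EV, a rise of 5.00 ± 1.08 (edgeR adjusted p = 0.0367) that was not called without EV replicate 2 (edgeR adjusted p = 0.106). The fetal genes HBG1 and HBG2, which are near-identical copies, were not called by edgeR. HBG2 had 5215 and 6316 CPM in DKO and 2864 and 1010 CPM in EV (1.57 ± 0.61, edgeR adjusted p = 0.178). HBA1 and HBA2, also near-identical, differed by 2.85 and 3.87 without passing the test, and HBQ1 had 14.7 and 14.8 CPM in DKO and 16.7 and 15.9 CPM in EV. Summed over the list, globin transcripts came to 16220 and 19270 CPM in DKO, 15470 and 8695 CPM in S1KO, 11630 and 4985 CPM in S2KO and 4841 and 1806 CPM in EV. Without EV replicate 2 the list median was 2.69, and HBE1 and HBB were called in each of the 4 fits with a library left out. In bulk RNA, more cells of a type and more RNA per cell cannot be told apart.

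Calls among heme synthesis and red cell membrane genes were all rises. Of 38 tested members, 12 were called higher and 0 lower, against 5.41% and 3.35% of all genes, and the median change was 0.58. ALAS2, the rate-limiting heme enzyme of red cell precursors, had 130 and 180 CPM in DKO, 61.1 and 48.4 CPM in S1KO, 64.3 and 122 CPM in S2KO and 11.7 and 13.0 CPM in EV. It rose by 3.65 ± 0.36 over EV (edgeR adjusted p = 0.00229). PPOX, a late enzyme of the heme pathway, rose to 76.2 and 81.9 CPM in DKO, against 29.2 and 30.6 CPM in EV (1.40 ± 0.17, edgeR adjusted p = 0.00419). UROS, another heme enzyme, had 43.9 and 49.2 CPM in DKO and 21.4 and 15.8 CPM in EV. Both carbonic anhydrases of the list rose. CA1 had 22.4 and 36.1 CPM in DKO, 3.91 and 3.13 CPM in S1KO, 46.0 and 53.4 CPM in S2KO and 2.26 and 2.44 CPM in EV, and it was also higher in DKO than in S1KO (3.05, edgeR adjusted p = 0.00727). The same order of groups, with S2KO the highest, was found for CA2, with 2.26 and 2.94 CPM in DKO, 0.523 and 0.277 CPM in S1KO, 4.26 and 3.60 CPM in S2KO and 0.0379 and 0.0239 CPM in EV. Membrane and blood group genes called higher were KEL, RHCE, ERMAP, XK, SLC4A1, the band 3 anion exchanger, and EPB42, its anchor; AHSP, the chaperone of alpha globin, was the last of the 12. The members called higher numbered 5 without DKO replicate 1, 4 without DKO replicate 2, 8 without EV replicate 1 and 10 without EV replicate 2; ALAS2, PPOX, CA1 and CA2 were called in all 4 fits.

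The 250 bases upstream of ALAS2 and PPOX are shown because these 2 heme enzymes rose in every fit that left out a library, and because the windows carry the letters AGATAA (or TTATCT on the other strand) that GATA factors read. The sequences are RefSeq, build GRCh38.p14, on the gene's strand, with the motif in capitals: chrX:55030978-55031227, minus strand, for ALAS2 and chr1:161166396-161166645, plus strand, for PPOX.
ALAS2: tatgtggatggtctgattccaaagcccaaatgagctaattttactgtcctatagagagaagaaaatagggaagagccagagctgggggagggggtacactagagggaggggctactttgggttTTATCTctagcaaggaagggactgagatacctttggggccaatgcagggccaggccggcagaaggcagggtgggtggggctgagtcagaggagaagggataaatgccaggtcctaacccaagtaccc
PPOX: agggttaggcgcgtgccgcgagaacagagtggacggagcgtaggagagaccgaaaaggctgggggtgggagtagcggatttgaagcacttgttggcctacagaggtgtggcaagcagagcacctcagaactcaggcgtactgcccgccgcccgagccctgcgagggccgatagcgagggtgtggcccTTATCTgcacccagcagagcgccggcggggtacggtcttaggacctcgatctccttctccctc
AGATAA occurred on either strand in 9.17% of 35116 such windows. Among the 24 heme and red cell members with a window, it occurred in 5 of the 6 called higher (ALAS2, EPB42, KEL, PPOX and RHCE) and in 6 of the other 18. A member counted if any of its windows held the letters, and PPOX has 2 windows, whereas 9.17% is a share of single windows. The member counts and that share are thus unlike measures. The motifs are matches of letters, not sites of binding, and no test was made on them.

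Erythroid transcription factor genes gave calls in both directions. Of 16 tested factors and cofactors, 1 was called higher and 2 lower, against 5.41% and 3.35% of all genes, with a median of 0.34. At an unadjusted p under 0.05, 5 were higher and 2 lower, DESeq2 called 3 higher and 2 lower, and with the replicate block 5 were called higher and 2 lower. KLF13 rose to 34.9 and 30.0 CPM in DKO, against 14.3 and 18.4 CPM in EV. MYB, which keeps progenitors immature, fell to 171 and 174 CPM in DKO, against 303 and 370 CPM in EV (-0.96 ± 0.20, edgeR adjusted p = 0.0322), and CBFA2T3, a corepressor of erythroid genes, fell to 20.2 and 17.7 CPM, against 39.6 and 34.8 CPM in EV. All 3 calls were lost without EV replicate 2, with edgeR adjusted p from 0.0693 to 0.127. GATA1 had 115 and 118 CPM in DKO and 80.4 and 71.1 CPM in EV and missed the threshold (edgeR adjusted p = 0.0505). Among the 14 genes that mark K562, BCR and ABL1 were expressed in every library and not called; the 2 calls were HBE1 and HBZ. Of 18 tested megakaryocyte and platelet genes, which K562 can also switch on, 5 were called higher and 0 lower. The list went both ways, with 10 positive and 8 negative changes and a median of 0.26. At an unadjusted p under 0.05, 6 were higher and 3 lower. DESeq2 called 5 higher and 2 lower, as did the fit with the replicate block. RAB27B, a granule transport GTPase, had 69.5 and 56.7 CPM in DKO, 95.7 and 113 CPM in S1KO, 15.1 and 25.5 CPM in S2KO and 2.02 and 3.29 CPM in EV. The tetraspanin CD9 had 4.86 and 4.23 CPM in DKO and 0.0506 and 0.0358 CPM in EV, and DKO also exceeded S1KO (3.32, edgeR adjusted p = 0.00981) and S2KO (4.98, edgeR adjusted p = 0.00173). GP1BB, THBS1 and TUBB1 were the others; TUBB1 was not called without EV replicate 2 (edgeR adjusted p = 0.0539), and the other 4 were called in each fit with a library left out.

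Collagen genes were among the rises, and COL1A2 separated DKO from both single excisions. Of 25 tested extracellular matrix genes, 7 were called higher and 1 lower, against 5.41% and 3.35% of all genes, with a median of 0.69. COL1A2, a chain of type I collagen, had 125 and 104 CPM in DKO, 7.56 and 6.70 CPM in S1KO, 0.579 and 0.342 CPM in S2KO and 0.430 and 0.346 CPM in EV. DKO lay far above the other 3 groups, S1KO was intermediate, and S2KO and EV overlapped. The rise was 8.20 ± 0.34 over EV (edgeR adjusted p = 0.000161), 4.00 over S1KO (edgeR adjusted p = 0.00321) and 7.95 over S2KO (edgeR adjusted p = 0.000617). SPARC, a collagen-binding glycoprotein, had 153 and 121 CPM in DKO, 89.0 and 103 CPM in S1KO, 88.2 and 94.8 CPM in S2KO and 3.0 and 2.23 CPM in EV. SPARC rose by 5.71 ± 0.24 over EV (edgeR adjusted p = 0.000171), and its excess over S1KO (0.51, edgeR adjusted p = 0.359) and over S2KO (0.58, edgeR adjusted p = 0.207) did not pass the test. COL18A1 had 115 and 115 CPM in DKO and 30.2 and 36.7 CPM in EV. COL6A1, COL1A1, COL4A2 and COL4A5 were the other rises, and COL4A2 and COL4A5 were not called without EV replicate 2. HSPG2, the basement membrane proteoglycan perlecan, fell to 132 and 97.6 CPM in DKO, against 258 and 378 CPM in EV, and this call too was lost without that library (edgeR adjusted p = 0.0704). COL1A2, SPARC, COL18A1 and COL6A1 were called in each fit with a library left out, in which the rises numbered 4 to 5 of the list.

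Markers of adherent cell types moved in both directions. Of 20 fibroblast, epithelial and endothelial markers 16 were tested, and 2 were called higher, both of them collagens already named, and 2 lower. Over all genes, 5.41% were called higher and 3.35% lower. VIM, the intermediate filament vimentin, had 116 and 95.9 CPM in DKO, 122 and 143 CPM in S1KO, 251 and 329 CPM in S2KO and 909 and 1176 CPM in EV, a fall of 3.30 (edgeR adjusted p = 0.000692). S100A6, a calcium-binding protein, had 0.240 and 0.162 CPM in DKO and 13.5 and 5.30 CPM in EV. The whole marker list summed to 944 and 882 CPM in DKO and 1650 and 1780 CPM in EV. The fibroblast proteoglycan gene LUM had no count in DKO or EV. Lymphoid markers summed to 22.1 and 19.1 CPM in DKO and 22 and 10.6 CPM in EV, with CD8A, MS4A1 and CD27 at 0 in all 4 libraries, and of the 11 tested CD22 and CD3G were called higher, neither of them with any 1 library left out. Myeloid markers summed to 118 and 95.7 CPM in DKO and 133 and 182 CPM in EV, with CTSG and ELANE at 0 in all 4, and of the 16 tested CD68 and LGALS3 were called higher and 0 lower, neither gene without a DKO library. The other myeloid markers did not all have that direction, and the list median was -0.30. Of the 16, 8 had both DKO libraries below both EV libraries and 6 had both above. Over all tested genes these shares were 28.1% and 30.2%. At an unadjusted p under 0.05, 3 were higher and 5 lower, and likewise by DESeq2. With the replicate block 2 were called higher and 6 lower. ITGB5, the only edgeR call among 22 integrin subunits, had 70.5 and 61.4 CPM in DKO, 73.2 and 91.3 CPM in S1KO, 27.4 and 23.7 CPM in S2KO and 4.74 and 4.60 CPM in EV. At an unadjusted p under 0.05, 4 integrin genes were higher and 4 lower. DESeq2 called 1 higher and 3 lower, and the fit with the replicate block 2 higher and 4 lower. Among 26 adhesion receptors CD44, CD58 and CD99 were called higher and PCDH9 lower, counts to be read against 5.41% and 3.35% of all genes, the last 2 not without EV replicate 2.

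**Figure D3:**
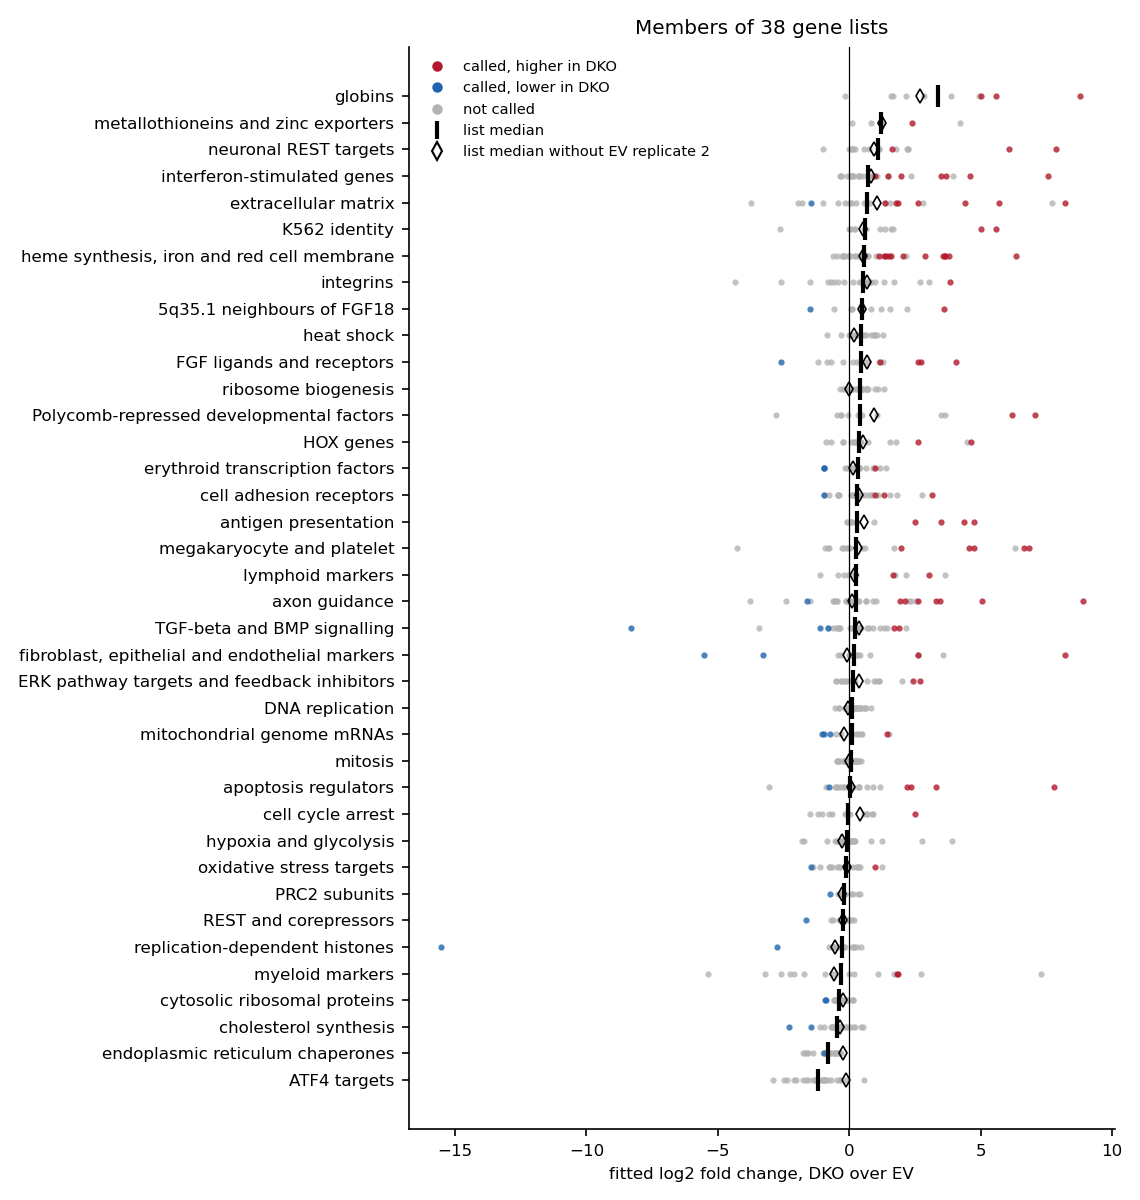
Fitted log2 change of DKO over EV for the tested members of 38 gene lists, 1 row per list and 1 point per gene, coloured where called, with the list median as a bar and the median without EV replicate 2 as a diamond. Globins have the highest median, 3.36, and ATF4 targets the lowest, -1.18, although 0 ATF4 targets were called; its diamond lies at -0.12.

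Antiviral genes were among the rises. Of 27 tested interferon-stimulated genes, 7 were called higher and 0 lower, against 5.41% and 3.35% of all genes, with a median of 0.71. IFIT3, an RNA-binding antiviral protein, had 7.0 and 6.64 CPM in DKO, 3.57 and 3.53 CPM in S1KO, 1.27 and 1.99 CPM in S2KO and 0.139 and 0.418 CPM in EV (4.60 ± 0.55 over EV, edgeR adjusted p = 0.00450). The 4 groups did not overlap, in the order DKO, S1KO, S2KO, EV from high to low, though the differences from S1KO (0.94, edgeR adjusted p = 0.486) and S2KO (2.06, edgeR adjusted p = 0.0847) did not pass the test. IFIT2 had 174 counts over DKO and 1 over EV (ratio 235, interval 41.7 to 9350). IFITM3, a membrane protein that blocks virus entry, had 49.9 and 39.5 CPM in DKO and 19.1 and 12.9 CPM in EV. IFIT1, MX2, OAS3 and ISG15 were the other rises; IFITM3, MX2 and ISG15 were not called without EV replicate 2. The rises of the list numbered 2 without DKO replicate 1, 2 without DKO replicate 2, 4 without EV replicate 1 and 5 without EV replicate 2, and IFIT2 and IFIT3 were called every time. Of 12 tested antigen presentation genes, 4 were called higher, all from low levels, against 5.41% called higher over all genes. PSMB8 had 1.78 and 1.32 CPM in DKO and 0.0632 and 0.0836 CPM in EV, and PSMB9, the neighbouring immunoproteasome subunit, had 1.88 and 1.71 CPM in DKO and 0.164 and 0.155 CPM in EV. TAP1, the peptide transporter, and HLA-B lost their calls without EV replicate 2.

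The windows upstream of IFIT3 and IFITM3 are shown because both carry the interferon-stimulated response element, searched on both strands as GAAA followed by any 2 bases and another GAAA, and printed in capitals. The RefSeq positions in GRCh38.p14 are chr10:89327747-89327996, plus strand, for IFIT3 and chr11:320861-321110, minus strand, for IFITM3.
IFIT3: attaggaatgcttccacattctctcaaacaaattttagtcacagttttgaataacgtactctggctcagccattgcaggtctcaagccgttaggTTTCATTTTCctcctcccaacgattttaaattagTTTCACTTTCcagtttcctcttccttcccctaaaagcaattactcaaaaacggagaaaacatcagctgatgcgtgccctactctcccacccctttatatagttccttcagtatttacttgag
IFITM3: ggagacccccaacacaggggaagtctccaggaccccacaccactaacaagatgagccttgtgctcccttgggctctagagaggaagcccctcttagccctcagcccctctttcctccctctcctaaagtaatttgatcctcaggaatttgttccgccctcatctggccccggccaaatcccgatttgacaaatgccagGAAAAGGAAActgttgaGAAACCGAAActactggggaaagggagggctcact
This element occurred in 3.02% of the 35116 windows. Among the 18 interferon-stimulated members with a window, it occurred in 5 of the 5 called higher (IFIT1, IFIT3, IFITM3, ISG15 and OAS3) and in 8 of the other 13. It is thus common in the members that were not called as well. A member again counted if any of its windows held the element, and IFIT3 has 2 windows. The share of 3.02% is one of single windows, so it is an unlike measure.

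Neuronal genes that REST is known to repress had a median change of 1.11 over 18 tested members, of which 3 were called higher and 0 lower. The counts of calls in this paragraph are to be read against 5.41% higher and 3.35% lower over all genes. SCG3, a granin of secretory granules, had 201 and 176 CPM in DKO, 572 and 577 CPM in S1KO, 7.22 and 7.79 CPM in S2KO and 3.12 and 2.48 CPM in EV. It rose by 6.07 ± 0.20 over EV (edgeR adjusted p = 0.000159) but was lower in DKO than in S1KO (-1.61, edgeR adjusted p = 0.0103). S1KO was thus the highest group and DKO the second, with S2KO and EV far below. SCN2A, a neuronal sodium channel, had 5.56 and 6.56 CPM in DKO, 5.96 and 5.03 CPM in S1KO, 0.335 and 0.854 CPM in S2KO and 0 and 0.0478 CPM in EV. CALB1, a calcium buffer, was also lower in DKO than in S1KO (-2.43, edgeR adjusted p = 0.0468), at 16.3 and 16.2 CPM in DKO, 66.5 and 108 CPM in S1KO and 4.28 and 6.08 CPM in EV, though its call against EV was lost with any 1 library left out. Of 32 tested axon guidance genes, 7 were called higher and 1 lower. The secreted repellent SEMA3A had 15.6 and 15.1 CPM in DKO, 6.91 and 7.24 CPM in S1KO, 1.16 and 1.56 CPM in S2KO and 2.30 and 2.74 CPM in EV. SEMA3D, SEMA3F, SEMA4D, EFNB1, EPHB6 and SLIT2 were the other rises, EPHB6 and SLIT2 not without EV replicate 2, and without DKO replicate 1 the rises numbered 3. PLXND1, a semaphorin receptor, fell to 15.8 and 12.6 CPM in DKO, against 43.3 and 43.7 CPM in EV. Among developmental factors that Polycomb proteins commonly repress, 12 of 33 passed the filter on low counts, and TBX3 (5.63 and 4.39 CPM in DKO, 0.0506 and 0.0836 CPM in EV) and TBX5 (at least 11.3-fold higher) were called, TBX5 not without EV replicate 2 (edgeR adjusted p = 0.160). HOX genes gave 2 calls of 17 tested, HOXD13 and HOXD4, both under 1 CPM in every library and neither called without EV replicate 2.

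In the fibroblast growth factor family, 4 of 15 tested genes were called higher and 1 lower. For this and the other lists of this paragraph, the shares over all genes were 5.41% higher and 3.35% lower. FGF2, the basic fibroblast growth factor, had 105 and 104 CPM in DKO, 95 and 97.6 CPM in S1KO, 72.3 and 83.9 CPM in S2KO and 37.0 and 55.4 CPM in EV (1.18 ± 0.21, edgeR adjusted p = 0.0183). FGF13, an intracellular member that acts on sodium channels, had 83.2 and 79.0 CPM in DKO and 10.8 and 15.6 CPM in EV (2.62 ± 0.25, edgeR adjusted p = 0.00201). The heparan sulfate co-receptors GPC1 and SDC1 also rose, from levels under 1 CPM in EV, SDC1 not without EV replicate 2 (edgeR adjusted p = 0.0740). FGF5, a secreted ligand, fell to 0.342 and 0.323 CPM in DKO, against 1.60 and 1.38 CPM in S1KO, 1.84 and 2.09 CPM in S2KO and 2.01 and 2.08 CPM in EV. It was lower in DKO than in each single excision (-2.16, edgeR adjusted p = 0.0271 for S1KO; -2.56, edgeR adjusted p = 0.00816 for S2KO), and the other 3 groups lay close together. Of 18 tested ERK targets and feedback inhibitors, 2 were called higher, FOSB and the receptor kinase inhibitor SPRY1, which had 3.18 and 2.58 CPM in DKO and 0.342 and 0.550 CPM in EV; FOSB was not called without EV replicate 2. In TGF-beta and BMP signalling, TGFBR2, BMPR2 and SMAD3 fell and ID3 and LTBP1 rose among 28 tested genes; BMPR2 and SMAD3 were not called without EV replicate 2. ID3, an inhibitor of helix-loop-helix factors, had 30.7 and 23.5 CPM in DKO and 7.69 and 6.96 CPM in EV. Among 26 apoptosis regulators, 4 were called higher and 1 lower. The death receptor gene FAS had 365 counts over DKO and 2 over EV (ratio 247, interval 67.8 to 2050). BOK and BMF were among the other rises, and TNFRSF10A was the gene called lower. FAS was called in each fit with a library left out; BOK, BMF and TNFRSF10A were not called without EV replicate 2.

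Some list medians rested on EV replicate 2. ATF4 targets, the genes of the amino acid response, summed to 2687 and 2903 CPM in DKO, 2757 and 8512 CPM in S1KO, 3056 and 10010 CPM in S2KO and 3068 and 8783 CPM in EV. Replicate 1 of EV was close to DKO, and replicate 2 of EV, S1KO and S2KO was high. The median over 28 tested members was -1.18 with all libraries and -0.12 without EV replicate 2; 0 were called by edgeR, 0 had an unadjusted p under 0.05, and 0 were called by DESeq2. Endoplasmic reticulum chaperones summed to 4338 and 4456 CPM in DKO and 5067 and 10480 CPM in EV, and their median was -0.79 with that library and -0.22 without it. CANX, the membrane chaperone calnexin, was the only call of the 20 and was lost without EV replicate 2, whereas 9 were called lower without EV replicate 1. The heat shock list had a median of the opposite sign, 0.45 with that library and 0.17 without it. It summed to 11720 and 12550 CPM in DKO, 12220 and 6283 CPM in S1KO, 13490 and 5500 CPM in S2KO and 11190 and 5192 CPM in EV. Replicate 2 was thus low in S1KO and S2KO as well as in EV. Of the 18 heat shock genes, 0 were called by edgeR, 0 had an unadjusted p under 0.05 and 0 were called by DESeq2. Cytosolic ribosomal protein genes summed to 27570 and 28560 CPM in DKO and 33550 and 42160 CPM in EV, and RACK1, a scaffold protein of the small subunit, was called lower, though not without EV replicate 2. Cell cycle genes did not pass the test: 0 of 30 mitosis genes were called by edgeR (2 lower at an unadjusted p under 0.05, 0 by DESeq2), and 0 of 32 DNA replication genes (4 higher and 1 lower at an unadjusted p under 0.05, 2 higher by DESeq2). Hypoxia and glycolysis genes gave 0 calls of 29 by edgeR, with 3 higher and 4 lower at an unadjusted p under 0.05 and 2 higher and 4 lower by DESeq2.

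**Figure D4:**
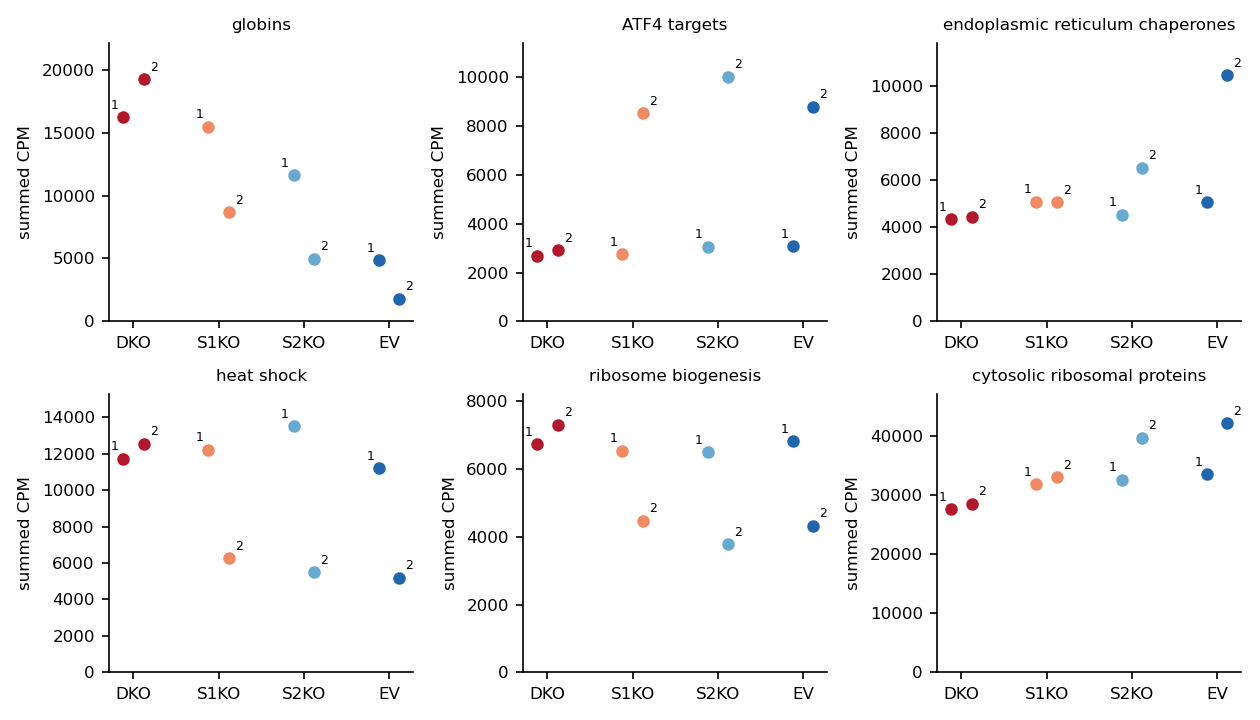
Summed CPM of 6 gene lists (vertical axes, from 0) in each of the 8 libraries, with DKO, S1KO, S2KO and EV from left to right and replicate numbers beside the points. The DKO points lie close together in each panel, while replicates 1 and 2 of the other groups separate in ATF4 targets, where EV has 3068 and 8783 CPM.

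The calls named above as lost without EV replicate 2 were also lost without DKO replicate 1 and without DKO replicate 2, except that SDC1 and EPHB6 stayed called without DKO replicate 2 and that TBX5 was not tested without DKO replicate 1. Those of RBBP4, RCOR1, HBZ, MYB, AHSP, TUBB1, HSPG2, SLIT2, BOK, CANX, IFITM3, RACK1, BMPR2 and SMAD3 stood without EV replicate 1, and the others, ERMAP and LGALS3 among them, did not. FGF2, UROS, EPB42, IFIT1, CD68 and GSR were called without either EV library but not without either DKO library. RHCE, SLC4A1, XK and OAS3 were called without EV replicate 2 and in no other such fit, and SEMA3F was called without DKO replicate 2 and without EV replicate 2. FGF5, KEL, CD44 and LTBP1 lost their calls without DKO replicate 2, and SPRY1, COL1A1 and EFNB1 without DKO replicate 1.

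The neighbours of FGF18 on the long arm of chromosome 5 were examined as a list and then along the chromosome. Of 12 tested neighbours, FGF18 included, 1 was called higher and 1 lower, against 5.41% and 3.35% of all genes. FBXW11, a subunit of a ubiquitin ligase and the first expressed gene distal to FGF18, fell to 23.1 and 23.4 CPM in DKO, against 38.6 and 48.6 CPM in S1KO, 39.8 and 50.5 CPM in S2KO and 57.1 and 75 CPM in EV (-1.51 ± 0.21, edgeR adjusted p = 0.00868). SH3PXD2B, an adaptor protein gene, rose to 2.65 and 1.97 CPM, against 0.101 and 0.275 CPM in EV. Neither call was made without DKO replicate 1 or without DKO replicate 2. NPM1, which encodes the nucleolar protein nucleophosmin and lies proximal to FGF18, had 2362 and 2678 CPM in DKO and 2574 and 2124 CPM in EV (0.10 ± 0.23, edgeR adjusted p = 0.828).

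From FBXW11 to the end of the chromosome, most expressed genes were lower in DKO. This stretch was picked after its values had been seen, so its counts are a description with no test. It holds 65 protein-coding genes whose mean level reached 5 CPM; 55 of them had a negative change, 21 (32.3%) were called lower and 0 higher, and the median was -0.56, a linear ratio of 0.68. Over all 9732 such genes the median was -0.03, and 4.14% were called lower. The next 65 genes on the proximal side, GNPDA1 to NPM1, had a median of 0.08, with 1 called lower and 5 higher, and all 366 genes proximal to the stretch, these 65 included, had a median of 0.03. RNF130, a ubiquitin ligase gene, had 10.5 and 11.5 CPM in DKO and 53.3 and 72.3 CPM in EV, and CANX and RACK1, named above, also lie in this stretch. On the log2 scale, each library's median deviation from the mean of the 8 libraries over the 65 genes was -0.29 and -0.29 for DKO, 0.28 and 0.20 for S1KO, -0.17 and -0.28 for S2KO, and for EV 0.32 and 0.26. DKO and S2KO were thus low and S1KO and EV high, and the median of DKO over S2KO was -0.05, against -0.58 over S1KO. The median without EV replicate 2 was -0.61, but single calls rested on few libraries: of the 21, 1 was called without DKO replicate 1, 1 without DKO replicate 2, 14 without EV replicate 1 and 6 without EV replicate 2. What underlies it was not tested, and DNA was not analysed here.

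**Figure D5:**
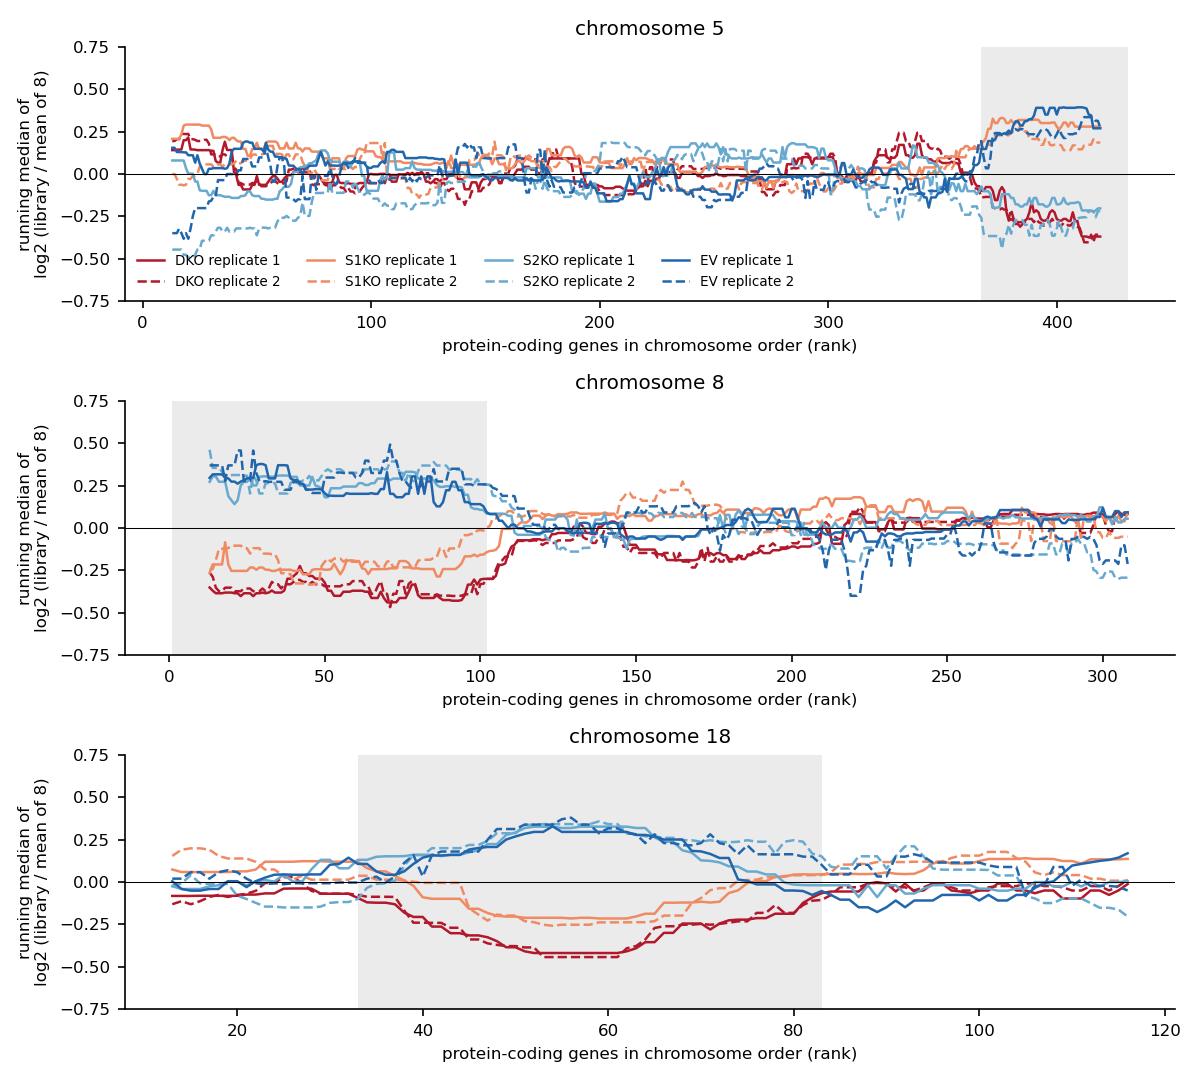
Running median over 25 genes of each library's log2 level relative to the mean of the 8 libraries (vertical axis), by rank of the protein-coding genes of at least 5 CPM along chromosomes 5, 8 and 18 (horizontal axis), with 1 line per library. In the shaded stretches both DKO lines lie below both EV lines, with S2KO beside DKO on chromosome 5 and S1KO nearer DKO on chromosomes 8 and 18. The medians of DKO over EV are -0.56, -0.65 and -0.52 in these stretches, which were chosen on the same changes.

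A scan in windows of 25 genes, at a median past 0.5 log2 units, gave 12 runs, 10 lower and 2 higher in DKO. The scan chose the runs by these same DKO over EV changes. Their medians, counts of calls and contrasts with genes outside them are thus a description with no test. The longest run began at FBXO25 on chromosome 8 and reached into the long arm, with 117 genes, a median of -0.58 and 24.8% called lower. It was trimmed to the short arm after it had been seen: from FBXO25 to POMK, 92 of 102 genes had a negative change, 27 (26.5%) were called lower (11 of them without EV replicate 2, and 1 with each library left out in turn), and the median was -0.65; the 218 genes of the long arm had a median of 0.03. The only gene called higher there was DMTN, which encodes a red cell membrane protein, with 15.5 and 15.2 CPM in DKO and 3.33 and 3.30 CPM in EV. GSR, which reduces glutathione, FDFT1, an enzyme of cholesterol synthesis, and TNFRSF10A lie on this arm and were called lower, FDFT1 not without either DKO library or without EV replicate 2. On this arm S1KO was low as well: the median deviations were -0.37 and -0.35 for DKO, -0.24 and -0.19 for S1KO, 0.28 and 0.33 for S2KO, and for EV 0.28 and 0.33. On chromosome 18, from CEP76 to ACAA2, 43 of 51 genes had a negative change, 13 (25.5%) were called lower (5 of them without EV replicate 2, and 2 with each library left out in turn) and 1 higher, and the median was -0.52, against -0.06 over the 77 genes outside it. ZNF521 lies in this run, as does GALNT1, a mucin-type glycosyltransferase gene with 21.3 and 24.6 CPM in DKO, 30.7 and 31.4 CPM in S1KO, 66.3 and 63.6 CPM in S2KO and 108 and 98.5 CPM in EV. On the long arm of chromosome 6, a run of 48 genes from RNF146 to NUP43 had a median of -0.47, with 11 called lower (22.9%) and 3 higher, and a run of 38 genes from SHPRH to WTAP, which overlaps it, had a median of -0.49, with 6 called lower and 3 higher. In the RNF146 run the DKO libraries were the lowest, with median deviations of -0.28 and -0.28 for DKO, 0.10 and 0.11 for S1KO, 0.08 and -0.02 for S2KO, and for EV 0.09 and 0.14. A pair of runs on chromosome 1, PARK7 to TNFRSF8 with 33 genes and IPP to LRRC42 with 42 genes, each had a median of -0.49 and 7 genes called lower. The stretches on chromosomes 5, 8 (short arm) and 18 hold 218 genes, 2.24% of those placed, and 61 of the 403 placed genes called lower (15.1%). These stretches were picked on the same changes. An excess of lower calls was thus built into the choice, and the shares are no test.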

How the data were processed

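Total RNA of K562 cells was ribosome-depleted and made into stranded libraries, per the labels' protocols. The authors deposited kallisto tables with estimated counts and TPM per transcript. The submitters' processing notes name Trimmomatic 0.38, kallisto 0.44.0, STAR 2.7.3a and hg19, without roles; kallisto's strand setting is not given in the sources used here. Estimated counts were summed to genes through the GENCODE 29 annotation, which was used for names, types and gene order only, and rounded to whole numbers. It matched 182238 of 215170 transcripts (84.7%), which carried 87.8% to 90.4% of the counts. The deposited TPM entered only an alternative, in which counts were rebuilt from length-scaled TPM.

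All 8 excision libraries were fitted together (4 groups of 2) with edgeR 4.0.16 (limma 3.58.1, R 4.3.3), with filterByExpr, TMM, robust quasi-likelihood F tests and Benjamini-Hochberg adjustment over all 21285 tested genes at 0.05; the fit left 4 residual degrees of freedom. Each result was recomputed with DESeq2 1.42.0, with a replicate block, on length-scaled TPM counts, on only the groups compared, without the filter, with RLE size factors, and with each library left out. Recomputing the medians of 3 chromosome stretches under each alternative was added after the data were seen. The fit was tested on simulated data.

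Members and lists were chosen with earlier results of these data known. Genes named singly were, by rule, the 12 largest rises and 12 largest falls among protein-coding genes with at least 2 CPM in the higher group that did not overlap and stayed called with any library left out, the 3 largest of each direction among long noncoding RNAs, up to 4 called members of each list by lowest p, the FGF18 neighbours, EZH2 and REST; further called list members and genes of the chromosome stretches were named after their values were seen. Promoter windows come from RefSeq. Depth limits low genes: intervals and floors cover counting error only. The 12 drug libraries were left out. Some genes of the lists are not reported here.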

Additional observations from a re-analysis of the deposited data

How the results depend on the processing

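Against 1866 calls between DKO and EV (1152 higher, 714 lower), DESeq2 made 3388 (1815 higher, 1573 lower), and leaving out 1 library gave 526 to 1333. Between DKO and S1KO, against 233, DESeq2 made 940, no filter 350, only the groups compared about 5.6e+02 (357 higher, 205 lower), length-scaled TPM counts 146, and leaving out 1 library 17 to 36. Between DKO and S2KO, against 631, DESeq2 made 1728, only the groups compared 312, and leaving out 1 library 101 to 302. Fewer libraries leave fewer residual degrees of freedom; the cause of the other shifts was not tested. FGF18 stayed uncalled in every alternative, with a log2 change of 1.21 to 7.39 and edgeR or DESeq2 adjusted p from 0.105 to 0.688; at 7.39 the lone EV library had 0 counts, so that value is no bound. Changes near 0 turned sign: with 1 library left out, NPM1 ranged from -0.04 (without EV replicate 2) to 0.22, RANBP17 from -0.11 (without EV replicate 2; -0.08 without DKO replicate 2) to 0.23, and REST from -0.02 (without DKO replicate 1; -0.01 without EV replicate 2) to 0.11, and STK10 -0.09 with length-scaled TPM counts. Of 109 called named genes, 109 kept their call with DESeq2, 109 with RLE size factors, 107 with no filter, 90 with only the groups compared and 97 with length-scaled TPM counts; 66 kept it without DKO replicate 1, 67 without DKO replicate 2, 88 without EV replicate 1 and 77 without EV replicate 2. The choice of the named genes fixed part of these counts. The 12 largest rises, the 12 largest falls and the 3 long noncoding RNAs of each direction were named only if called with any library left out. Most other named genes had the lowest p of their list. The counts of named calls kept are thus no measure of how stable calls are over all genes. The medians of the 3 chromosome stretches kept their sign, at -0.61 to -0.55, -0.70 to -0.59 and -0.56 to -0.43.

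With a replicate block, 3172 genes were called between DKO and EV (1783 higher, 1389 lower), 434 between DKO and S1KO and 1286 between DKO and S2KO, and 109 of the 109 named calls were kept. The numbers are not shown to pair DKO with the other groups: deviations of same-numbered libraries correlated at -0.059, -0.060 and -0.084 for DKO with S1KO, S2KO and EV, against 0.566 for S1KO with S2KO, 0.488 for S1KO with EV and 0.622 for S2KO with EV.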

Other observations

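Short RNAs were called in 1 direction in DKO. Of 547 tested short RNA genes, 62 (11.3%) were called lower and 0 higher. Of 169 tested small nucleolar RNA genes, which guide the chemical modification of ribosomal RNA, 33 (19.5%) were called lower, against 3.35% of all genes, and 0 higher, and 18 were called in each fit with a library left out. Their median change was -0.22, and they summed to 801 and 716 CPM in DKO, 1037 and 1125 CPM in S1KO, 1489 and 1618 CPM in S2KO and 2198 and 2278 CPM in EV. SNORD17 had 22.4 and 20.2 CPM in DKO and 56.2 and 70.0 CPM in EV (-1.57 ± 0.17, edgeR adjusted p = 0.00310). SNORD10 had no count in DKO and 7.08 and 7.12 CPM in EV. Small nuclear RNAs, the RNAs of the splicing machinery, gave 12 calls lower of 96, with sums of 86.3 and 99.3 CPM in DKO, 225 and 210 CPM in S1KO, 266 and 269 CPM in S2KO and 375 and 345 CPM in EV. Among the 12, RNU1-1, RNU1-2, RNU1-3, RNU1-4, RNVU1-18, RNU1-27P and RNU1-28P had identical levels in every library. Their reads were thus not told apart, and their calls are not separate results, here or among the 62 short RNA genes called lower. RNY3, a Y RNA, had 0.171 and 0.0969 CPM in DKO, 2.47 and 1.98 CPM in S1KO, 3.04 and 3.17 CPM in S2KO and 5.19 and 3.99 CPM in EV. Genes annotated as miscellaneous RNA gave 10 calls lower of 181, Cajal body RNAs 3 of 17, and processed pseudogenes 54 lower and 22 higher of 744. Each of these classes thus had more calls lower than higher in the same DKO libraries, and what underlies this was not tested. A difference in how the DKO libraries were made or run cannot be told apart from excision here. The genes named here were chosen after their values were seen. Small nucleolar RNAs lie inside host genes, so their reads and those of the hosts may not be separable.

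The mitochondrial ribosomal RNAs were also lower. MT-RNR1 had 53.2 and 46.4 CPM in DKO, 120 and 142 CPM in S1KO, 132 and 148 CPM in S2KO and 165 and 194 CPM in EV (-1.85 ± 0.17, edgeR adjusted p = 0.00174). MT-RNR2 had 168 and 148 CPM in DKO and 380 and 497 CPM in EV. Among the 13 mitochondrial mRNAs MT-ND4, MT-ND4L and MT-CYB were called lower and MT-ND3 higher. None of these 4 was called without DKO replicate 1 or without DKO replicate 2, and MT-CYB was not called without either EV library (edgeR adjusted p = 0.0911 without replicate 1 and 0.0504 without replicate 2). These are levels after ribosomal RNA depletion. On the short arm of chromosome 11, a run of 49 genes from TOLLIP to DENND5A that spans the beta-type globin cluster had a median change of 0.51, with 10 called higher and 1 lower. The scan in windows chose this run too by these changes, so the values are a description with no test.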
